A study of Mus musculus with 8 samples.

Results

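The genes described here are 10 members of the Kruppel-like factor (KLF) family: Klf2, Klf3, Klf4, Klf5, Klf6, Klf7, Klf10, Klf11, Klf13 and Klf15. They are a selection of the family members other than Klf9, matched by symbol in a table of 78298 canonical mouse transcripts. The selection was made with earlier results of these data known. Further KLF genes, among them Klf12 and Klf16, are described with a separate list below. Each symbol matched 1 row, and all 10 passed the filter on low counts that left 17128 rows for testing. The libraries are poly(A) RNA-seq of wild-type NIH3T3 cells, an immortalised mouse fibroblast line, kept in medium with fetal bovine serum. Cells received Mic-628 or vehicle for 1 day, with 4 libraries in each group, and the series title describes the compound as an inducer of Period1 that advances the circadian clock. Batches are numbered 1 to 4 in the labels, and each holds 1 vehicle and 1 Mic-628 library. Whether replicate libraries are separate cultures is not stated, and the p-values therefore reflect only library-to-library spread, which may be technical.

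KLF proteins are transcription factors with zinc fingers at the C terminus that bind GC-rich and CACCC sequences, and they differ mainly in the N-terminal part that recruits cofactors. Klf2, Klf4, Klf5, Klf6 and Klf7 are best known as activators that recruit histone acetyltransferases. Klf3 is a repressor that binds CtBP proteins, and Klf10, Klf11 and Klf13 are repressors that bind SIN3. Several of these genes are immediate-early or hormone-responsive genes in fibroblasts, and some, among them Klf10 and Klf15, are known to cycle with the circadian clock in liver.

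Promoter sequences were matched by symbol to RefSeq promoters on build GRCm38.p6, and the deposited table uses mm39, so the positions of one were not compared with those of the other. Of the 10 genes 8 matched, and Klf5 and Klf10 did not. The 250 bases before the RefSeq start were searched on both strands for the E-box CACGTG, bound by CLOCK and BMAL1, and for the cAMP response element TGACGTCA and its shorter form TGACG, since the study is about a clock inducer. Shown are the promoter of Klf4, which rose, that of Klf13, which fell, and those of Klf6 and Klf15, which hold E-boxes and were not called. Capitals mark CACGTG and TGACG on either strand, and the sequences run 5′ to 3′ along the gene.
Klf4, chr4:55532476-55532725, minus strand: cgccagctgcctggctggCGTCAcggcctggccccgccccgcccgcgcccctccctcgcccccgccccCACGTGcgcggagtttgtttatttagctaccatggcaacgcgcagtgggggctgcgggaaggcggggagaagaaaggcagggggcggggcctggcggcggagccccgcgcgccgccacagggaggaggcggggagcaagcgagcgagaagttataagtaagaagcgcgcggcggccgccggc
Klf13, chr7:63938916-63939165, minus strand: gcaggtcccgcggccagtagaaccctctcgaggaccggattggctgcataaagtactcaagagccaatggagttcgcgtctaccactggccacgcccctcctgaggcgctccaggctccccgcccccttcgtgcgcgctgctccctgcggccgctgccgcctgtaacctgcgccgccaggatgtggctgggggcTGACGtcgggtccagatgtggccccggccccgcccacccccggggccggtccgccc
Klf6, chr13:5861239-5861488, plus strand: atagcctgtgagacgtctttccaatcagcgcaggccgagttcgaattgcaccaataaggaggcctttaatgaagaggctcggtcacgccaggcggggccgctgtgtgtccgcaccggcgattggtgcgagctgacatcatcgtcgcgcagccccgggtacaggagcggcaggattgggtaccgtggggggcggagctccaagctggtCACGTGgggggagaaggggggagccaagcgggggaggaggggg
Klf15, chr6:90462326-90462575, plus strand: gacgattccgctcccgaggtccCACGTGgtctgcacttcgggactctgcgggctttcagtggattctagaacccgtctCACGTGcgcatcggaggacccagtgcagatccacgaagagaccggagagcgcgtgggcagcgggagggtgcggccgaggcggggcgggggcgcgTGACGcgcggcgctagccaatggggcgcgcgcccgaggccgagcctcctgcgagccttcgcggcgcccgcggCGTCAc
The RefSeq start of Klf4 lay 9 bases, and that of Klf6 7 bases, from the start of the deposited transcript in GENCODE vM21 on the same build. For Klf13 and Klf15 both starts were at the same base. Among the other matched genes the starts lay 29 (Klf2), 97 (Klf11), 102 (Klf7) and 133 (Klf3) bases apart. The windows of these genes, counted below, are thus shifted against the deposited starts.

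CACGTG was found before 4 of the 8 genes, Klf4, Klf6, Klf11 and Klf15, and before 6.02% of all 32851 promoters in the table. Klf15 held 2 copies. The 5-base form TGACG was found before Klf2, Klf4, Klf13 and Klf15, and in 17.8% of all promoters. The full TGACGTCA was found before 0 of the 8 and in 1.55% of all promoters. All 8 held the GC box GGGCGG, found in 32.7% of all promoters, and 5 held CACCC, found in 52% of them. These are GC-rich windows, with 59.2% (Klf7) to 78.4% (Klf3) G and C against a median of 52.4% in the table. A split by the E-box covers only the 8 matched genes and so leaves out Klf10. Whether the E-box plays a part was not tested. Of the 4 with CACGTG, Klf4 was called higher and Klf6, Klf11 and Klf15 were not called, and of the 4 without it, Klf13 was called lower and Klf2, Klf3 and Klf7 were not called.

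Each library held between 18.1 M and 23.2 M (M, mega) counts in listed rows. The labelled cell type was checked against markers. All 10 fibroblast markers were at 1 FPKM (fragments per kilobase of exon and per mega reads) or more, with a summed level of 5094 to 5273 FPKM with vehicle and 4444 to 4559 FPKM with Mic-628. Of 6 endothelial markers, relevant because Klf2 and Klf4 are prominent in endothelium, 0 reached 1 FPKM, their sum was 0.184 to 0.348 FPKM with vehicle and 0.184 to 0.223 FPKM with Mic-628, and Tie1 was at 0 in all 8 libraries. Of 6 macrophage and blood markers 3 reached 1 FPKM (Cd68, Csf1r and Cd14), Adgre1 was at 0, and the sum was 9.01 to 9.82 FPKM with vehicle and 9.97 to 10.9 FPKM with Mic-628. Of 6 epithelial markers 1 reached 1 FPKM (Krt14), Epcam had a mean of 0.00275 FPKM in each group, and the sums were 1.86 to 2.10 and 1.85 to 2.68 FPKM. The fibroblast and macrophage sums did not overlap between groups. In counts scaled to library size, 10.7% of all tested rows did not overlap between groups. Of the 10 fibroblast markers, 5 were called lower (50%, beside 2.25% of all tested rows): Col1a2, Col3a1, Fn1, Vim and Dcn. Of the 3 macrophage and blood markers tested, 0 were called. The part of these markers in the results on KLF genes was not tested.

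The 10 genes covered a wide range of levels. On the FPKM scale, which is per length and so allows genes to be compared, their order with vehicle was Klf6, Klf4, Klf3, Klf5, Klf13, Klf10, Klf7, Klf11, Klf2 and Klf15. Klf6, a broadly expressed activator, was the highest at 41.9 ± 1.26 FPKM (SD, n = 4), followed by the reprogramming factor gene Klf4 at 29.3 ± 1.58 FPKM (SD, n = 4) and the repressor gene Klf3 at 20.7 ± 0.273 FPKM (SD, n = 4). Klf6, Klf4 and Klf3 together made up 67.5% to 69.1% of the summed FPKM of the 10 genes over the 8 libraries. Klf5 (12.5 FPKM), Klf13 (10.8 FPKM) and Klf10 (9.32 FPKM) formed a middle tier, and Klf7 (4.83 FPKM) and Klf11 (4.04 FPKM) lay below it. At the bottom were Klf2, known for keeping endothelium and T cells quiescent, at 1.34 ± 0.0497 FPKM (SD, n = 4), and Klf15, a regulator of amino acid and glucose metabolism, at 0.326 ± 0.0506 FPKM (SD, n = 4).

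With vehicle, no neighbours in this order overlapped in their ranges over 4 libraries. With Mic-628 the order changed at 1 place. Klf10, at 11.8 to 12.6 FPKM, moved above Klf13, at 9.44 to 10.0 FPKM, and its range then overlapped that of Klf5, at 12.2 to 13.0 FPKM. The summed FPKM of the 10 genes was 135.2 ± 3.59 (SD, n = 4) with vehicle and 143.5 ± 3.27 (SD, n = 4) with Mic-628. The ranges of that sum, 130.8 to 139.2 and 139.3 to 146.6 FPKM, were next to each other, and since the genes differ in direction the sum is given only as a description.

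**Figure D1:**
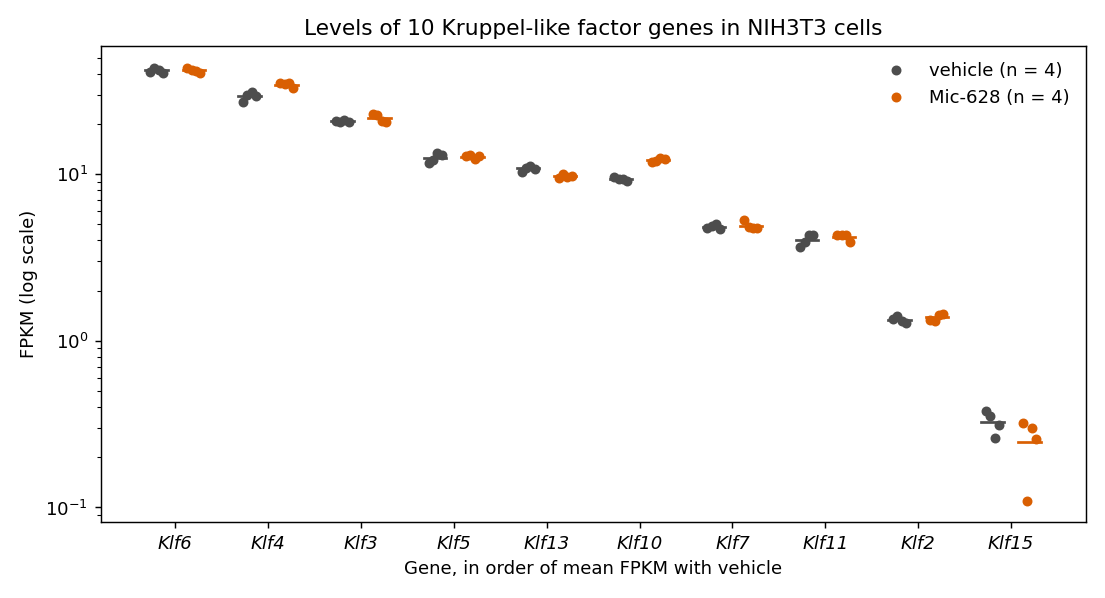
FPKM (log axis) of the 10 KLF genes in each of 4 vehicle (grey) and 4 Mic-628 (orange) libraries, with horizontal bars at the group means and genes ordered by the vehicle mean. Klf6 is at about the same level in both groups, near 41.9 FPKM, and the Klf10 points move from near 9.32 to near 12.2 FPKM, above those of Klf13.

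The comparison of Mic-628 with vehicle asks which of these genes differed after 1 day. Klf10 and Klf4 rose, Klf13 fell, and the other 7 were not called. Called means an adjusted p under 0.05 in edgeR's quasi-likelihood test, with Benjamini-Hochberg adjustment over all 17128 rows. The 3 called genes of 10 stand beside a background of 4.37% of all tested rows called, 2.13% higher and 2.25% lower. Since the 10 genes were chosen with earlier results of these data known, this contrast is no test of the family. The same 3 genes were those whose CPM (counts per mega counts, scaled with TMM) did not overlap between groups, which was the case for 10.7% of all tested rows (5.63% higher and 5.07% lower). The changes of the 3 called genes were modest, at most 1.31-fold. The median log2 fold change of all 10 genes was 0.04, against -0.0040 over all tested rows. In bulk RNA, fewer cells of a kind and less RNA per cell cannot be told apart.

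Klf10, a TGF-beta-inducible repressor gene, showed the largest change among the called genes. Its transcript (ENSMUST00000074043.7) lies on chromosome 15, 38294657 to 38300950, minus strand, of mm39. It had 31.5, 30.6, 30.6 and 29.7 CPM in vehicle replicates 1 to 4, while Mic-628 replicates 1 to 4 had 38.9, 39.3, 41.1 and 40.4 CPM. The lowest Mic-628 library was well above the highest vehicle library. The means were 30.6 ± 0.717 and 39.9 ± 1.05 CPM (SD, n = 4 each), 0.39 apart on the log2 scale (SE 0.043; edgeR adjusted p = 1.16e-06). This is 1.31-fold, with a 95% interval of 1.23 to 1.39. Within batches the log2 difference was 0.31, 0.36, 0.43 and 0.44 for batches 1 to 4, so it was higher in 4 of 4. Among the 364 rows called higher, 99 including Klf10 had a fold at least as large. Klf10 was called in all 25 alternative settings.

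Klf4, which is induced in fibroblasts by serum withdrawal and holds back the cell cycle, rose by less. Its transcript (ENSMUST00000107619.3) lies on chromosome 4, 55527143 to 55532466, minus strand, of mm39. Vehicle replicates 1 to 4 had 88.6, 96.8, 101.1 and 95.7 CPM, and Mic-628 replicates 1 to 4 had 114.8, 113.3, 113.8 and 108.0 CPM. The groups did not overlap, and vehicle replicate 1 was the lowest of all. The means were 95.5 ± 5.20 and 112.5 ± 3.06 CPM (SD, n = 4 each), 0.23 apart on the log2 scale (SE 0.038; edgeR adjusted p = 0.000280), 1.18-fold with a 95% interval of 1.11 to 1.24. Within batches 1 to 4 the log2 difference was 0.37, 0.23, 0.17 and 0.17, higher in 4 of 4. The E-box in the Klf4 promoter shown above lies 182 to 177 bases before the RefSeq start. Klf4 was called in 24 of 25 alternative settings, and lost its call in limma-trend on log2(FPKM + 1) over all rows above 0 (adjusted p = 0.0685).

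Klf13, a SIN3-binding repressor gene expressed in many tissues, was the only gene of the 10 called lower. Its transcript (ENSMUST00000063694.10) lies on chromosome 7, 63536099 to 63588663, minus strand, of mm39. Vehicle replicates 1 to 4 had 71.4, 75.5, 77.8 and 74.8 CPM, and Mic-628 replicates 1 to 4 had 65.4, 69.0, 66.3 and 67.5 CPM. The groups did not overlap, but the gap between the lowest vehicle and the highest Mic-628 library was small. The means were 74.9 ± 2.62 and 67.0 ± 1.55 CPM (SD, n = 4 each), a change of -0.16 on the log2 scale (SE 0.036; edgeR adjusted p = 0.0108), 0.896-fold with a 95% interval of 0.850 to 0.944. Within batches 1 to 4 the log2 difference was -0.13, -0.13, -0.23 and -0.15, lower in 4 of 4. This call was the weakest of the 3: it was made in 17 of 25 settings and was not made without vehicle replicate 3, without batch 2 or without batch 3 (edgeR adjusted p 0.0577, 0.0696 and 0.156). With the batch block it was called in edgeR (adjusted p = 0.0212) and not in DESeq2 (adjusted p = 0.237).

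**Figure D2:**
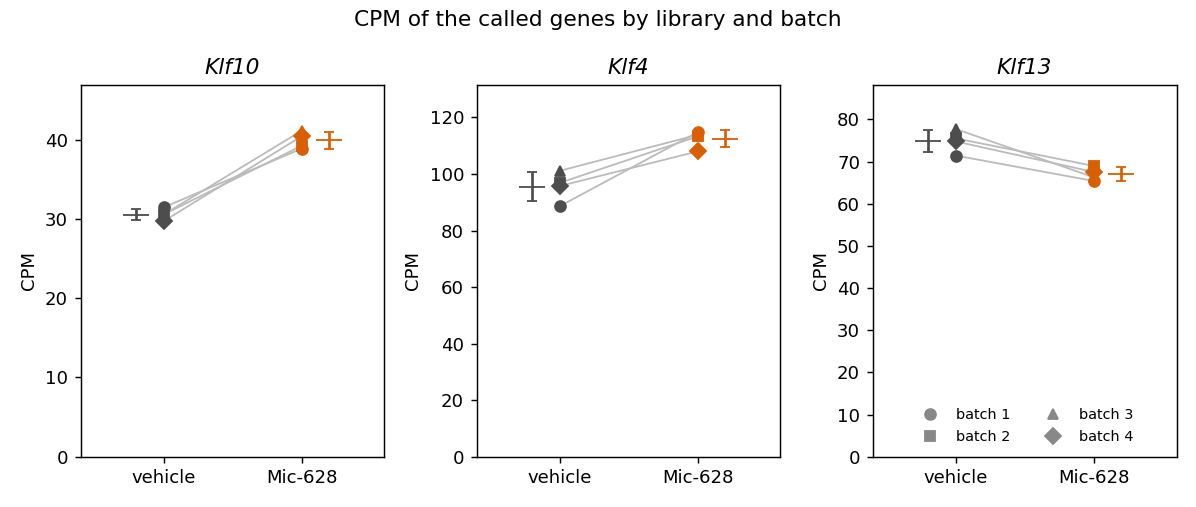
CPM of Klf10, Klf4 and Klf13 in each library, with grey lines joining the vehicle and Mic-628 library of the same batch and, beside the points, the group mean ± SD (n = 4 each). All 4 lines rise for Klf10 (means 30.6 and 39.9 CPM) and Klf4 (95.5 and 112.5 CPM) and all 4 fall for Klf13 (74.9 and 67.0 CPM), on axes that start at 0.

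Among the other activator genes, none was called. Klf6 (ENSMUST00000000080.8, chromosome 13, 5911481 to 5920393, plus strand) had 185.9 to 198.3 CPM with vehicle and 184.7 to 198.6 CPM with Mic-628. These ranges nearly coincide, and the fold of 0.998 had a 95% interval of 0.952 to 1.05, the narrowest of the 10 on the log2 scale. Klf5, a growth-promoting factor gene (ENSMUST00000005279.8, chromosome 14, 99536127 to 99552472, plus strand), had 41.9 to 48.5 CPM with vehicle and 44.1 to 46.8 CPM with Mic-628, a fold of 1.02 (0.951 to 1.08). Klf7, which acts in neuronal and fat cell differentiation (ENSMUST00000114086.8, chromosome 1, 64068606 to 64160650, minus strand), had 39.1 to 41.3 and 39.4 to 43.7 CPM, also a fold of 1.02 (0.954 to 1.08). The intervals of Klf5, Klf6 and Klf7 thus leave out a change as large as the 1.18-fold of Klf4. The sign of these 3 log2 fold changes differed between settings. Klf2 (ENSMUST00000067912.8, chromosome 8, 73072877 to 73075500, plus strand) was measured from only 48 to 61 counts per library. It had 2.54 to 2.77 CPM with vehicle and 2.62 to 2.89 CPM with Mic-628, and its fold of 1.04 had a wide interval of 0.864 to 1.24, so a change like that of Klf4 was not detectable at this depth.

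The repressor genes apart from Klf10 and Klf13 were not called either, and nor was Klf15, which is placed in neither type here. Klf3, the CtBP-binding repressor gene (ENSMUST00000165536.8, chromosome 5, 64960731 to 64990244, plus strand), lay between 115.2 and 118.6 CPM with vehicle, while Mic-628 replicates 1 to 4 had 128.9, 126.9, 117.7 and 116.3 CPM. Mic-628 replicates 1 and 2 lay above all vehicle libraries and replicates 3 and 4 within their range, and the fold was 1.05 (95% interval 0.998 to 1.11; edgeR adjusted p = 0.317). Klf11, the TGF-beta-inducible paralog of Klf10 (ENSMUST00000020982.7, chromosome 12, 24701273 to 24712788, plus strand), had 16.0 to 19.2 CPM with vehicle and 17.3 to 19.1 CPM with Mic-628, a fold of 1.04 (0.953 to 1.14). Klf15, an early glucocorticoid target gene in several tissues (ENSMUST00000032174.12, chromosome 6, 90439558 to 90452220, plus strand), had 0.989, 0.922, 0.670 and 0.799 CPM in vehicle replicates 1 to 4, while Mic-628 replicates 1 to 4 had 0.83, 0.258, 0.745 and 0.663 CPM. Mic-628 replicate 2 was far below the others and the rest overlapped. With 6 to 20 counts per library the fold of 0.722 had an interval of 0.482 to 1.08, and neither no change nor a fall to below 0.5-fold lay outside it.

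**Figure D3:**
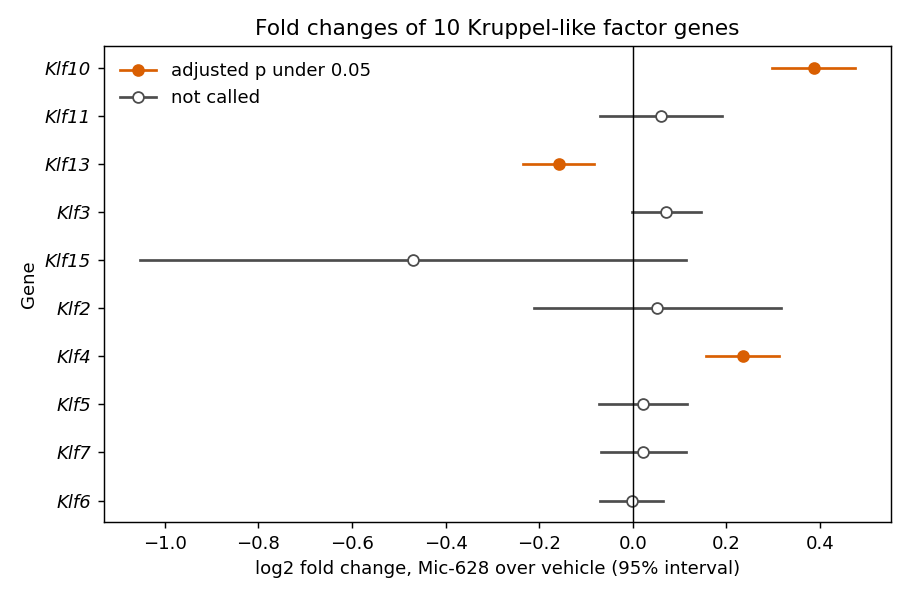
Log2 fold change of Mic-628 over vehicle for each of the 10 genes, grouped by type (activators from Klf6 to Klf2 at the bottom, then Klf15, then repressors), with bars for the 95% interval from edgeR and filled orange points for an adjusted p under 0.05. Klf10 (0.39), Klf4 (0.23) and Klf13 (-0.16) have intervals away from 0, and Klf15 has the widest interval, from -1.05 to 0.11.

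Close relatives were compared directly, since a call for one gene and none for its relative is no test of a difference. The log2 ratio of Klf10 to Klf11 was 0.97, 0.83, 0.69 and 0.63 in vehicle replicates 1 to 4, and 1.03, 1.05, 1.11 and 1.22 in Mic-628 replicates 1 to 4, on the log2 CPM scale. The 4 Mic-628 ratios lay above the 4 vehicle ratios. The difference was 0.32 (vehicle 0.78 ± 0.15, Mic-628 1.10 ± 0.086; SD, n = 4 each). Its exact two-sided permutation p was 0.0286, the smallest that 4 against 4 libraries can give. Adjusted over the 3 ratios compared it was 0.0857, the lowest value that 1 ratio alone at the smallest p can reach, so the threshold was not passed. For Klf2 to Klf4, the log2 ratio was -5.16 ± 0.098 (SD, n = 4) with vehicle and -5.34 ± 0.10 (SD, n = 4) with Mic-628. That difference of -0.19 had an exact permutation p of 0.0857 (0.129 adjusted) and the groups overlapped. For Klf6 to Klf7, the log2 ratio was 2.26 ± 0.035 and 2.23 ± 0.039 (SD, n = 4 each), a difference of -0.03 with an exact permutation p of 0.400, also 0.400 adjusted. A p above the threshold does not show that the members of a pair respond alike.

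For each called gene, the 3 most similar profiles were sought among 8990 other named rows with a mean of at least 10 CPM. Similarity was the root mean square difference over the 8 libraries in log2 CPM after subtracting the vehicle mean. Klf10 was closest to Rarg, a retinoic acid receptor gene (0.043), the fatty acid binding protein gene Fabp5 (0.047) and Fam43a (0.057). For Klf4 these were Pdzrn3 (0.030), the taurine transporter gene Slc6a6 (0.035) and the transcription factor gene Nfix (0.037). For Klf13 they were the kinase gene Jak3 (0.016), the YAP target gene Amotl2 (0.024) and Arhgef40 (0.024). These rows were picked for likeness, so their own fold changes, such as 0.37 for Rarg, 0.22 for Pdzrn3 and -0.16 for Jak3 on the log2 scale, add no support.

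Other genes around the KLF proteins were described from lists fixed by name. Of 16 further KLF and SP family genes 8 were tested, and 1 was called (12.5%, beside 4.37% of all tested rows): Klf9, a steroid- and clock-responsive repressor gene, had 92.4 ± 1.95 CPM with vehicle and 135.6 ± 3.32 CPM with Mic-628 (SD, n = 4 each; 0.55 on the log2 scale, SE 0.033; edgeR adjusted p = 1.36e-11). The other 7, Klf12, Klf16, Sp1, Sp2, Sp3, Sp4 and Sp6, ran from -0.15 (Sp4) to 0.12 (Sp3) on the log2 scale. Leaving out Mic-628 replicate 3, Sp3 was called (edgeR adjusted p = 0.0379). Klf1, Klf8, Klf14, Klf17, Sp5, Sp7, Sp8 and Sp9 were too low to be tested, and Klf14, Sp8 and Sp9 had 0 counts in all 8 libraries. The list's median log2 fold change was 0.0049. With 8 genes tested, and the lists chosen with earlier results of these data known, the 12.5% called is no result about the list. Klf10, Klf4 and Klf9 were thus the called risers of the KLF and SP genes tested.

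Of the proteins that KLF factors recruit, 11 genes were tested and 0 were called by edgeR, DESeq2 or limma-voom. In edgeR 4.37% of all tested rows were called. At an unadjusted edgeR p under 0.05 stood 0 of the 11, and 17% of all tested rows. The 11 genes included the SIN3 scaffolds Sin3a (log2 fold change -0.02) and Sin3b (-0.06), the CtBP corepressors Ctbp1 (-0.03) and Ctbp2 (0.0046), and the acetyltransferases Ep300 (0.04) and Crebbp (0.0046). Of 7 ubiquitin ligase genes that turn over KLF proteins, 0 were called by any of these tools. An unadjusted edgeR p under 0.05 was found for 2, Wwp1 (0.12) and Wwp2 (-0.09). The CPM of Wwp1, Wwp2 and Itch did not overlap between groups, as for 10.7% of all tested rows. With so few genes, 0 called beside 4.37% is no result about either list. Wwp2 was called without vehicle replicate 1 (edgeR adjusted p = 0.0463). The medians of both lists were -0.02 and 0.04 on the log2 scale.

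Among 13 genes known to induce KLF genes, covering the ERK5-MEF2, SRF and SMAD routes and the glucocorticoid receptor, 1 was called. This share, 7.69%, is near the 4.37% of all tested rows and is no result about the list. Mef2d, one of the MEF2 factors through which ERK5 signalling switches on Klf2 and Klf4, rose from 82.4 ± 5.60 to 94.4 ± 2.71 CPM (SD, n = 4 each; 0.20 on the log2 scale, SE 0.041; edgeR adjusted p = 0.00536). This call was lost on leaving out batch 2 (edgeR adjusted p = 0.103) and in DESeq2 with the batch block (0.0577). Mapk7, which encodes ERK5, stood at -0.11 on the log2 scale; it was called without vehicle replicate 1 (edgeR adjusted p = 0.0466) but not with all libraries (0.151). The SMAD genes that carry TGF-beta signals to Klf10 and Klf11 were not called: Smad2 had 0.04, Smad3 0.03 and Smad4 -0.0013 on the log2 scale. Srf (-0.0012) and the glucocorticoid receptor gene Nr3c1 (-0.01) were not called either.

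Of 29 genes that have been reported as targets of one or another KLF factor, 26 were tested, and 5 rose, 1 fell and 20 were not called. This is 23.1% called, beside the 4.37% of all tested rows, but the list was assembled by name with earlier results of these data known, most of its genes answer to many other factors, and the study measured no KLF binding. Thbd, the thrombomodulin gene that Klf2 and Klf4 activate in endothelium, rose from 179.3 ± 6.31 to 214.8 ± 3.85 CPM (SD, n = 4 each; 0.26 on the log2 scale, SE 0.032; edgeR adjusted p = 7.91e-06). The smooth muscle actin gene Acta2 rose from 976.3 ± 24.2 to 1122 ± 56.8 CPM (SD, n = 4 each; 0.20 on the log2 scale, SE 0.035; edgeR adjusted p = 0.000698). Tgfbr1, a TGF-beta receptor gene, fell from 86.0 ± 2.50 to 76.5 ± 2.98 CPM (SD, n = 4 each; -0.17, SE 0.037; edgeR adjusted p = 0.00607). Tagln, another smooth muscle gene, rose from 197.6 ± 3.46 to 219.2 ± 7.73 CPM (SD, n = 4 each; 0.15, SE 0.032; edgeR adjusted p = 0.00651). Odc1 (0.15) and the weakly expressed Txnip (1.01) also rose. The cell cycle inhibitor gene Cdkn1a, a classic target of Klf4 and Klf6, stood at -0.02 on the log2 scale and was not called, nor were Smad7 (0.06), which Klf10 and Klf11 repress, and Col1a1 (-0.0044). The list's median was 0.01 on the log2 scale. Without batch 3 the count fell to 2, and Tagln, Odc1, Tgfbr1 and Txnip were the genes lost. With the batch block, DESeq2 did not call Tgfbr1 (adjusted p = 0.120) or Odc1 (adjusted p = 0.0507) and gave no adjusted p for Txnip, while edgeR called all 3. Tgfbr1 was also not called without batch 2 (edgeR adjusted p = 0.116), nor Odc1 without batch 4 (0.0813) or without Mic-628 replicate 3 (0.0532). Txnip, with 6 to 24 counts per library, lost its call without batch 2 or batch 4 and on leaving out any of vehicle replicates 2, 3 and 4 and Mic-628 replicates 1 and 3.

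**Figure D4:**
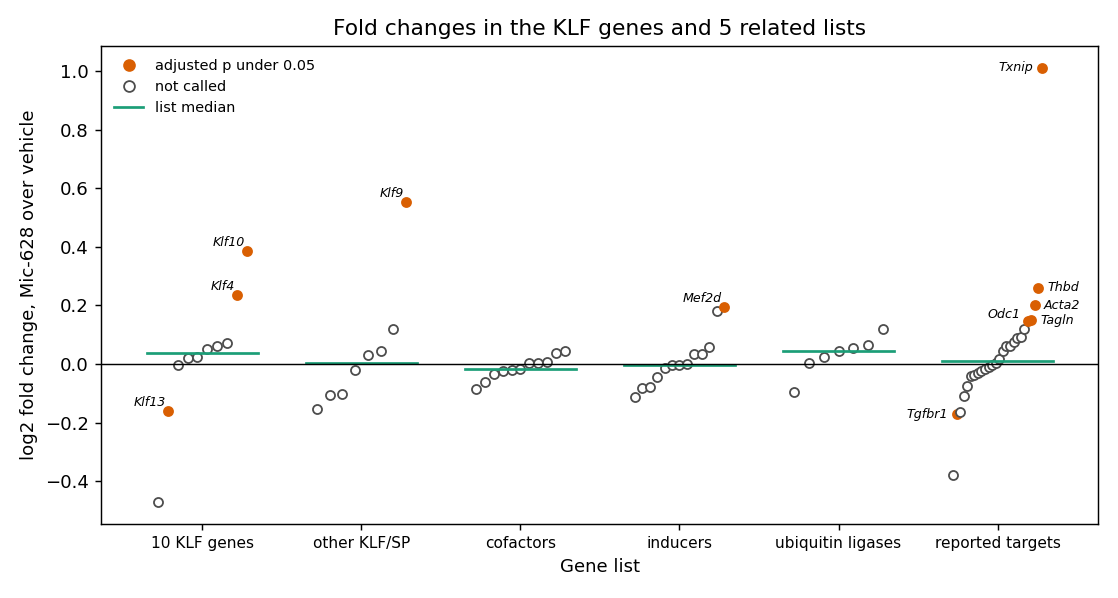
Log2 fold change of Mic-628 over vehicle for each tested gene of the 10 KLF genes and of 5 related lists, with filled orange points and names for an adjusted p under 0.05 and green bars at the list medians. All 11 cofactor genes lie within -0.09 to 0.04, and the highest points are Txnip (1.01) among reported targets and Klf9 (0.55) among other KLF and SP genes.

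Overlapping annotation hardly touched these rows. Rows overlapping Klf3, Klf7, Klf10 and Klf13 were found, with a mean of at most 8 counts per library each, against 740.6 or more for these KLF genes. Klf2, Klf4, Klf5, Klf6, Klf11 and Klf15 overlapped no other row. The KLF genes share zinc finger coding sequence, and how reads that match several genes were counted is not given in the sources used here.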

How the data were processed

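Poly(A) RNA-seq of 8 NIH3T3 libraries was analysed. The submitters' processing notes name STAR 2.7.10a, HOMER 4.11 and bcl2fastq, and build GRCm39 (mm39), without roles. The authors deposited exon counts per canonical transcript, in steps of 0.5 and so treated as estimated counts, and FPKM for the same rows; recomputing FPKM from counts, length and the header totals (19.6 M to 25.1 M) differed by at most 5e-04. Columns were matched by library name, with 0 left unmatched. Positions are those of the table.

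Rounded counts entered edgeR 4.0.16 under R 4.3.3 (filterByExpr with minimum count 10, TMM, quasi-likelihood F test without a block, Benjamini-Hochberg adjustment). Standard errors are the log2 fold change divided by the square root of F. Log2 CPM has a prior count of 0.5. Alternatives used a batch block, DESeq2 1.42.0, limma 3.58.1, other scalings, filters and pseudocounts, and left out each library or batch. The labels state shared batches, so the numbers pair the libraries; deviations from group means correlated at -0.0925, 0.0744, -0.0213 and -0.0949 within batches over 10292 genes, and at -0.117 to 0.141 between them. Replicates differed by more than counting noise (chi-square per gene 1.66 to 5.33), so none was merged. The fits were tested on simulated data. Figures used Python 3.11.15 and matplotlib 3.10.9.

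All 10 genes are named. From each list, called genes are named, up to 4 by smallest p with full values. Others are named for their known tie to a KLF gene or for a call in another setting. The members and lists were chosen with earlier results of these data known. From the list of reported targets 1 gene was left out of the text, counts and median and is not reported here.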

Additional observations from a re-analysis of the deposited data

Results flagged for a closer look

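A library stood apart from the other 3 of its group in 3 of the 20 sets of 4 CPM values checked (10 genes in 2 groups), judged by its gap to the nearest other value relative to the whole range. Chance alone gives about 1 such set in 20. Klf5 had 44.1 CPM in Mic-628 replicate 3, below the 46.6 to 46.8 CPM of the other Mic-628 libraries. Klf7 had 43.7 CPM in Mic-628 replicate 1, above 39.4 to 39.8 CPM in the others. Klf11 had 17.3 CPM in Mic-628 replicate 4, below 19.0 to 19.1 CPM. The library that stood apart was a different one for each gene, and none of the 3 genes was called.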

How the results depend on the processing

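Klf10 was called in all 25 settings, with a log2 fold change of 0.35 to 0.41, Klf4 in 24 (0.19 to 0.26) and Klf13 in 17 (-0.18 to -0.13). Klf3, Klf5, Klf6, Klf7 and Klf11 were called in 0 of 25, Klf2 in 0 of the 24 that gave it an adjusted p, and Klf15 in 0 of 20. Of the 10 genes, 2 to 3 were called when a library was left out, and 1 by limma-trend on log2(FPKM + 1) over all rows above 0. Near 0, signs changed: Klf6 (-0.0027) became 0.0034 with library size only, 0.016, 0.0082 and 0.0012 without batches 2, 3 and 4, and -0.022 to 0.017 without single libraries; Klf5 became -0.018 and -0.0015 without batches 1 and 2, and -0.013 to 0.055 without single libraries; Klf7 became -0.020 without batch 1, and -0.012 to 0.040 without single libraries. Causes were not tested.

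All called rows (749; 364 higher, 385 lower) numbered 624 with the replicate block in edgeR and 243 (130 and 113) with it in DESeq2; 277 (156 and 121), 273 (153 and 120) and 170 (107 and 63) by limma-trend on log2(FPKM + 1), on log2(FPKM + 0.1) and over all rows above 0; 330 (173 and 157) at 0.01; and 331 (186 and 145) and 292 (164 and 128) without batches 2 and 3. Without single libraries they numbered 426 to 802 (220 to 412 higher, 206 to 429 lower). In the same block and limma-trend settings, in that order from DESeq2, reported targets numbered 3, 3, 3 and 1, and 2 without batch 3, and inducers 0 in each and 0 without batch 2. The other KLF and SP genes numbered 2 with no count filter. Without single libraries the ranges were 4 to 8 for targets, 1 to 2 for inducers, 1 to 2 for other KLF and SP genes, and 0 to 1 for ligases. With the block DESeq2 lost Klf13; in edgeR the block changed no call of the 10. Within batches, as a block, the paralog differences were 0.32 for Klf10 to Klf11, -0.19 for Klf2 to Klf4 and -0.03 for Klf6 to Klf7. The lowest p that an exact sign-flip test over 4 batches can give is 0.125. The adjusted sign-flip p was 0.375 for each of the 3 ratios. Klf2 and Klf15 are limited by depth.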
